A study of Homo sapiens with 36 samples.

Results

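The 2 co-treatments of the series, DHA with propionate (DHA+PRO) and DHA with protocatechuic acid (DHA+PCA), were set directly against each other after 24 h in HepG2 cells. The comparison holds 6 of the 36 libraries, taken by their titles: replicates 1 to 3 of DHA+PRO 24 h and replicates 1 to 3 of DHA+PCA 24 h, with the replicate number as pairing factor. HepG2 is an established human hepatoma line that keeps many hepatocyte functions. All 6 cultures received docosahexaenoic acid (DHA, 50 µM), an n-3 polyunsaturated fatty acid. The first group also received propionate (PRO, 70 µM, dissolved in water) and the second protocatechuic acid (PCA, 20 µM, dissolved in acidified DMSO), so that each compound was tested at 1 dose and the doses were not matched. DHA was given as a complex with bovine serum albumin in serum-free medium. The other groups of the study, at 6 h and 24 h with 3 replicates each, were the vehicle control (Ctrl, with albumin, ethanol and DMSO), DHA, PRO and PCA. RNA of parallel cultures was pooled within each experiment, and 1 hepatoma line in monoculture stands for the liver.

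Propionate is a short-chain fatty acid made by bacterial fermentation of fibre. It enters cells by monocarboxylate transporters and is burned by way of propionyl-CoA and methylmalonyl-CoA. Protocatechuic acid is a phenolic acid and a metabolite of anthocyanins, and phenolic acids are methylated, sulfated and glucuronidated in the liver. DHA lowers the transcription of sterol and fatty acid synthesis genes, many of which are driven by the sterol regulatory element binding proteins (SREBPs). The comparison asks whether the 2 partners of DHA leave the cells with different transcriptomes.

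Depth differed between the libraries. Replicate 2 of DHA+PRO held 42326734 counts, 6.22 times the median (6799496) of the 17 others at that time, while the other 5 libraries compared held 5617341 to 7059542. The pair that holds this library also stood apart by base composition. Over 11830 genes, GC content and the difference of that pair had a Spearman correlation of 0.562. The other pairs gave -0.0645 and -0.0169, and the fitted log2 fold change gave 0.32. The 2 groups were also compared with the deep library thinned to the median depth, without it, and with a GC-content offset per library. In each case 0 genes passed. The hepatocyte and HepG2 markers (12 genes, ALB and APOB highest) summed to 70900 to 71100 CPM with DHA+PRO (counts scaled to a common library size) and 69900 to 80100 with DHA+PCA. Fibroblast markers summed to 56.8 to 76.1 and 60.3 to 72.9 CPM (LUM at 0 in all 6 libraries), endothelial markers to 0.331 to 0.851 and 0.318 to 0.599 (KDR at 0), and cholangiocyte markers to 557 to 653 and 626 to 641 (CFTR at 0, most of it KRT19 and SOX9). Leukocyte markers summed to 1630 to 2060 and 1590 to 2010 CPM, nearly all from LYZ, with PTPRC and CD3E at 0.

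No gene passed the test between DHA+PRO and DHA+PCA at 24 h. Of 11893 genes tested with edgeR's quasi-likelihood test, 0 (0%) passed an adjusted p of 0.05 (Benjamini-Hochberg over all genes tested) with an average log2 CPM above 0, and the lowest adjusted p was 0.998. Without the replicate number in the model, by the DESeq2 Wald test and by edgeR's likelihood ratio test the count was also 0. At an unadjusted p under 0.05 there were 392 genes (3.3%), of which 173 (1.45%) were higher and 219 (1.84%) lower with DHA+PRO. The other fits put 202, 289 and 441 genes there. The median size of the log2 fold change was 0.0834 against a median standard error of 0.121. The data bound the difference for most genes. The 95% interval of the log2 fold change lay within ±0.5 for 8830 genes (74.2%) and within ±1, a 2-fold change, for 11077 (93.1%). For the remaining genes the interval reached past a 2-fold difference. These intervals are from the fit with the replicate number, and without it the median standard error was 0.14. The 3 and 3 samples did not overlap for 962 genes (8.09%), 481 (4.04%) higher and 481 (4.04%) lower with DHA+PRO. For a single gene such a separation has an exact two-sided permutation p of 0.1, so it is not a call. In all 3 pairs, 2963 genes (24.9%) had the same sign.

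**Figure D1:**
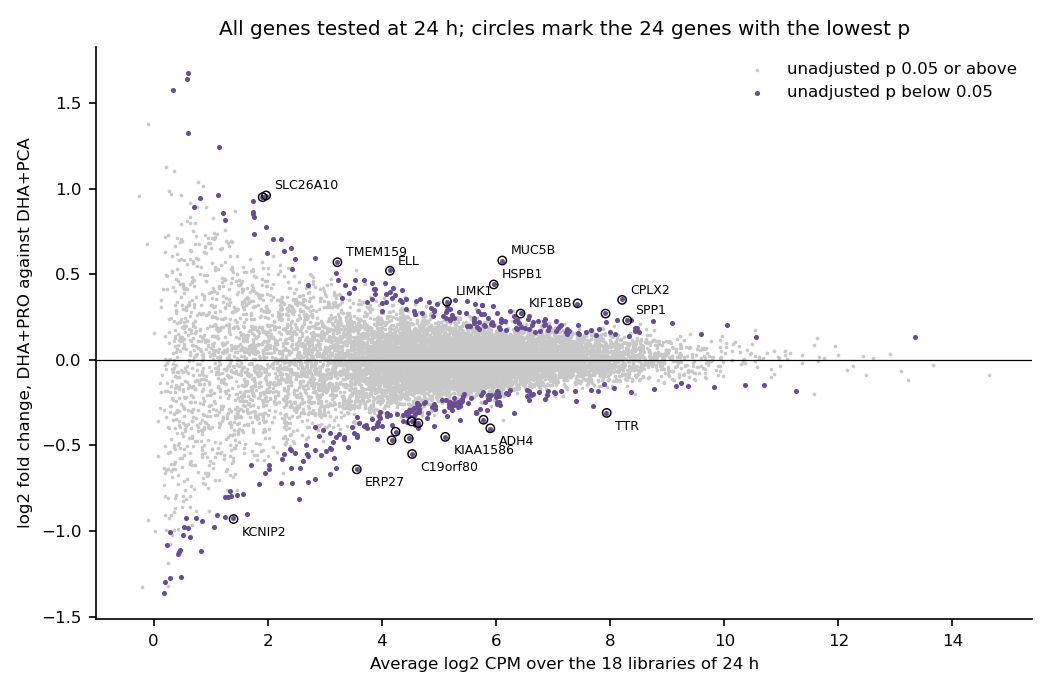
Log2 fold change of DHA+PRO against DHA+PCA (vertical axis) by average log2 CPM over the 18 libraries of 24 h (horizontal axis) for all 11893 genes tested, with the 392 genes at an unadjusted p under 0.05 in purple. Circles mark the 24 genes with the lowest p, 12 in each direction and part of them with their names, and 0 genes passed the adjusted test.

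Sterol and fatty acid synthesis genes, the class for which DHA is best known, were low in both co-treatments and close to each other. The study names 13 such genes. Against Ctrl, 11 of them were lower with DHA+PRO (0.732% of all genes) and 12 with DHA+PCA (0.706%), or 10 and 9 without the replicate number, and their median log2 fold changes against Ctrl were -0.647 and -0.578. The study chose these genes on these samples, and both contrasts share the Ctrl libraries. Between the co-treatments, 0 of the 13 passed, the log2 fold changes ran from -0.15 (IDI1) to 0.17 (FASN) with a median of 0.00464 (all genes -0.00304), and all 13 intervals lay within ±0.5.

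Examples at 3 points of this class are SREBF2, which encodes a SREBP, HMGCS1, an early step of the mevalonate pathway, and SCD, the stearoyl-CoA desaturase. Their promoters are shown, chosen for these positions. Each is the run of 250 bases before the RefSeq start, 5′ to 3′ on the gene's strand, in the coordinates of build GRCh38.p14 (the deposited table uses hg19). Capitals mark a sterol regulatory element (TCACNCCAC) or a CCAAT box (ATTGG), each searched on both strands. The motifs do not overlap in these windows.
SREBF2, chr22:41832855-41833104, plus strand: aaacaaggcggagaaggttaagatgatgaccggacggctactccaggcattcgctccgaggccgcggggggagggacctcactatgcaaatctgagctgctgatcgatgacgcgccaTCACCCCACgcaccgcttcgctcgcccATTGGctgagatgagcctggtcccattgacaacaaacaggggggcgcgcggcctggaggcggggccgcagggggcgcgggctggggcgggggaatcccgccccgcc
HMGCS1, chr5:43313413-43313662, minus strand: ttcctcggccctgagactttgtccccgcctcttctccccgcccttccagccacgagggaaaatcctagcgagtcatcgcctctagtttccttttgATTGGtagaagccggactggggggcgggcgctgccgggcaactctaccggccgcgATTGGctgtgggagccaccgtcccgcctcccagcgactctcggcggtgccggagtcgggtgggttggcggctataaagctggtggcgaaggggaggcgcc
SCD, chr10:100346983-100347232, plus strand: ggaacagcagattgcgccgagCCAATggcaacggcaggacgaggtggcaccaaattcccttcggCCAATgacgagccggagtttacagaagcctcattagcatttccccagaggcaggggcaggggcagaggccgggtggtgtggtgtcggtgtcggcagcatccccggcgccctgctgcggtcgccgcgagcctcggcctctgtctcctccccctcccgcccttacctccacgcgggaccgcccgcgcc
The sterol regulatory element was present in 1 of the 10 promoters found among the 13 genes, that of SREBF2 at position -133 from the start, and in 0.875% of 27305 promoters in the RefSeq table. A CCAAT box was present in 6 of the 10, at positions -155 and -100 in HMGCS1, -229 and -186 in SCD and -106 in SREBF2, and in 33% of all promoters. A match is a run of letters and not a measured binding site. Other forms of the element and bases outside the window were not searched.

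HMGCS1 (HMG-CoA synthase, chr5:43287572-43313614, minus strand, hg19) was at 436, 474 and 540 CPM in DHA+PRO replicates 1 to 3 and at 535, 573 and 467 CPM in those of DHA+PCA, against 871, 905 and 837 CPM in Ctrl. The co-treatments overlapped, and both lay below every Ctrl sample. The log2 fold change between them was -0.11 (95% interval -0.34 to 0.11). IDI1, the isopentenyl diphosphate isomerase, was at 161, 167 and 172 CPM with DHA+PRO and at 178, 204 and 175 with DHA+PCA. The groups of IDI1 did not overlap, yet the log2 fold change of -0.15 (-0.37 to 0.06) had an unadjusted p of 0.159 and did not pass. In the whole mevalonate list, 8 of 9 genes were below 0 with a median of -0.0543, 0 passed, and 7 were lower than Ctrl with either co-treatment, or 6 with DHA+PRO and 3 with DHA+PCA without the replicate number.

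SCD (chr10:102106772-102124588, plus strand, hg19) was at 2560, 2500 and 2390 CPM with DHA+PRO and at 2540, 2580 and 2250 with DHA+PCA, against 4070, 4190 and 4150 in Ctrl. Its interval was narrow, at a log2 fold change of 0.02 (-0.10 to 0.13). ACSS2, the cytosolic acetyl-CoA synthetase, was at 162, 150 and 160 CPM with DHA+PRO and at 161, 142 and 167 with DHA+PCA, with a log2 fold change of 0 (-0.15 to 0.16). FASN, the fatty acid synthase, was at 1150, 1230 and 1170 CPM with DHA+PRO and at 1230, 912 and 1010 with DHA+PCA. Its log2 fold change of 0.17 (-0.07 to 0.41) came from replicates 2 and 3, while replicate 1 was -0.09. The SREBP genes had log2 fold changes of 0.14 (-0.14 to 0.42) for SREBF1 and 0.07 (-0.10 to 0.24) for SREBF2.

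Neighbouring parts of lipid metabolism gave the same counts of 0. The medians were 0.00401 for the 13 genes from squalene to cholesterol, 0.0386 for 8 fatty acid synthesis genes, 0.0168 for 13 desaturases and elongases, and 0.0734 for 15 genes of SREBP regulation and sterol uptake. FADS1, the delta-5 desaturase, was at 267, 273 and 291 CPM with DHA+PRO and at 272, 254 and 254 with DHA+PCA (log2 fold change 0.09, -0.05 to 0.23). Among 19 lipid droplet and triglyceride genes 16 were above 0 with a median of 0.0782, and PLIN2, a lipid droplet coat protein, was at 345, 376 and 339 CPM against 265, 383 and 324. Among 24 genes of PPAR alpha and fatty acid oxidation 19 were below 0 with a median of -0.0682. The lowest of these was ANGPTL4, an inhibitor of lipoprotein lipase, at 0.663, 2.26 and 1.85 CPM with DHA+PRO and at 2.82, 2.87 and 3.15 with DHA+PCA (-0.80, -1.47 to -0.13, unadjusted p = 0.0208, edgeR adjusted p = 0.998), at a level near the filter.

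**Figure D2:**
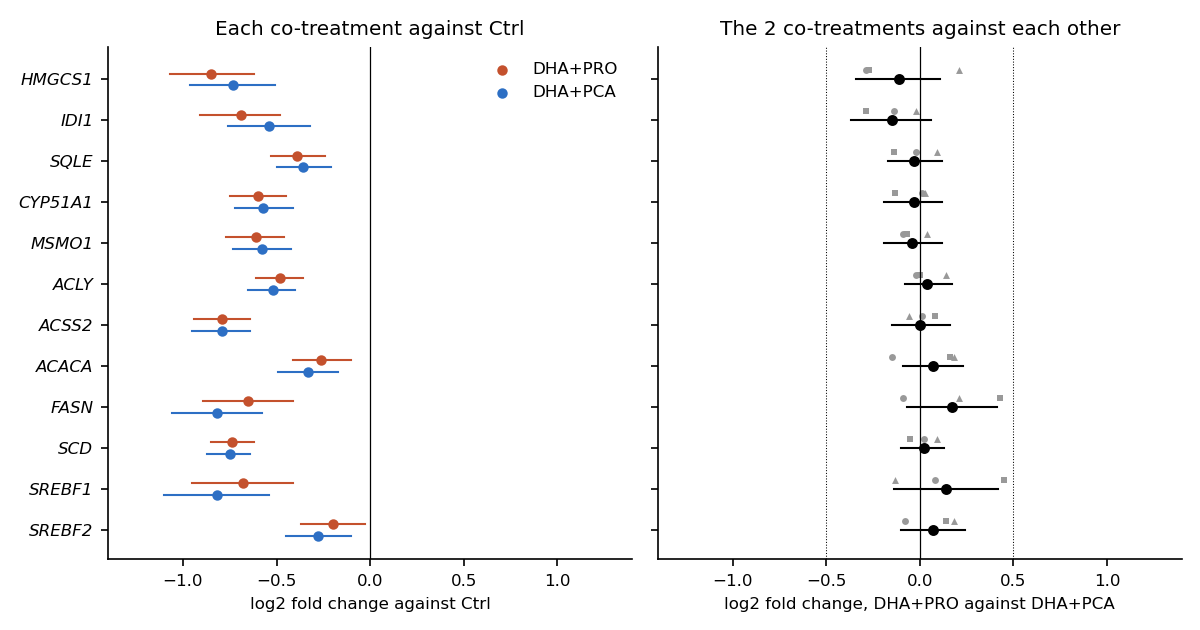
Log2 fold changes (horizontal axes) with 95% intervals of 12 of the 13 lipid synthesis genes at 24 h, against Ctrl on the left (red DHA+PRO, blue DHA+PCA) and of DHA+PRO against DHA+PCA on the right, where grey circles, squares and triangles are the pairs of replicates 1, 2 and 3 and dotted lines mark ±0.5. Both co-treatments lie below Ctrl on the left, and on the right every interval includes 0 and lies within ±0.5.

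The genes that DHA alone changed were read in the co-treated samples, whose levels are no part of the contrast that picked them. The fit over all 18 libraries does share its filter, spread estimate and replicate terms with these samples. DHA against Ctrl at 24 h called 77 genes (0.647% of those tested), or 23 without the replicate number. Among the 58 repressed ones the median log2 fold change against Ctrl was -0.514 with DHA+PRO, -0.558 with DHA+PCA and -0.520 with DHA. Between the co-treatments their median was 0.0322, with pair medians of 0.00513, 0.00423 and 0.0936, and 55 of the 58 intervals lay within ±0.5. Among the 19 induced ones the medians against Ctrl were 0.565, 0.547 and 0.606 (all of these share the Ctrl samples), and between the co-treatments 0.0881, with pair medians of 0.0989, 0.0866 and 0.118. In the direct contrast 3 of the 19 had an unadjusted p under 0.05 and were higher with DHA+PRO (1.45% of all genes) and 1 was lower (1.84%), and 0 passed. Their range ran from -0.46 (MT1G, a metallothionein) to 0.35 (CPLX2, a complexin of vesicle release).

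The 12 genes with the lowest p that were higher with DHA+PRO included genes of secreted proteins, and none passed (edgeR adjusted p = 0.998). SPP1 (osteopontin, a secreted matrix protein, chr4:88896802-88904563, plus strand, hg19) was at 421, 432 and 486 CPM with DHA+PRO and at 330, 395 and 416 with DHA+PCA. Ctrl was at 199, 220 and 223 CPM, below all 6 co-treated samples, and DHA alone at 305, 339 and 332. Its log2 fold change of 0.23 ± 0.0723 (SE of the fit, n = 3 samples per group) did not pass. PRO against PCA without DHA gave 0.31 (edgeR adjusted p = 0.0508). MYC, a transcription factor of growth, was at 256, 290 and 263 CPM against 205, 231 and 235, a log2 fold change of 0.27 ± 0.0817 that did not pass. CPLX2 was at 377, 379 and 452 CPM with DHA+PRO and at 305, 322 and 314 with DHA+PCA, while DHA alone was at 307, 327 and 349. Against Ctrl, CPLX2 gave 0.84 (edgeR adjusted p = 3.9e-06) and 0.49 (0.00547, or 0.203 without the replicate number). HSPB1, a small heat shock protein, was at 59.9, 80.1 and 77.4 CPM against 50.4, 53.8 and 54.6. Others were MUC5B (0.58), TMEM159 (0.57), ZFHX2 (0.95), ELL (0.52), SLC26A10 (0.96), KIF18B (0.27) and LIMK1 (0.34). MUC5B, a gel-forming mucin, rested on replicate 3 with a pair difference of 1.11 on the log2 scale against 0.33 in each of the other pairs. It passed in 1 alternative, the fit with no filter on low counts (adjusted p = 0.0318), and not in the others.

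The 12 with the lowest p that were lower with DHA+PRO included secreted liver proteins and liver enzymes, and none passed. TTR (transthyretin, the carrier of thyroxine and retinol-binding protein, chr18:29171730-29178986, plus strand, hg19) was at 190, 218 and 212 CPM with DHA+PRO and at 228, 227 and 322 with DHA+PCA. The groups did not overlap, but replicate 3 of DHA+PCA stood above every other sample, and the log2 fold change of -0.31 ± 0.081 became -0.15 without replicate number 3. C19orf80 (ANGPTL8, a circulating regulator of lipoprotein lipase, chr19:11350295-11352619, plus strand, hg19) was at 21.9, 17 and 14.1 CPM with DHA+PRO and at 30.3, 25.9 and 21.3 with DHA+PCA. The groups overlapped slightly, but every pair was lower with DHA+PRO, at -0.46, -0.59 and -0.58 on the log2 scale. Its log2 fold change was -0.55 ± 0.155 (unadjusted p = 0.0016, edgeR adjusted p = 0.998). ADH4, an alcohol dehydrogenase of hepatocytes, was at 52.4, 50.9 and 44.8 CPM against 67.5, 65.9 and 65.7, a log2 fold change of -0.40 ± 0.115. Others were MPP7 (-0.46), ERP27 (-0.64), GTF3C6 (-0.35), KIAA1586 (-0.45), COBL (-0.37), PLEKHA3 (-0.42), KCNIP2 (-0.93) and ATF7IP (-0.36).

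These 24 genes were picked by this contrast, so that the separation of their samples is a description: 11 of the 12 higher ones and 9 of the 12 lower ones did not overlap. In samples that did not pick them, the direction was mixed. At 6 h, 5 of 12 and 5 of 12 had the same sign, and for PRO against PCA without DHA at 24 h 4 of 12 and 6 of 12. A CCAAT box was in 1 of 7 and 6 of 8 of the promoters found, beside 35.4% of those found for all genes tested. The median GC content was 58.4% for the higher and 41.7% for the lower genes, against 48.2% for all genes tested. The part of base composition in these values was not tested gene by gene, and with the GC-content offset all 24 kept their sign and 0 passed.

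**Figure D3:**
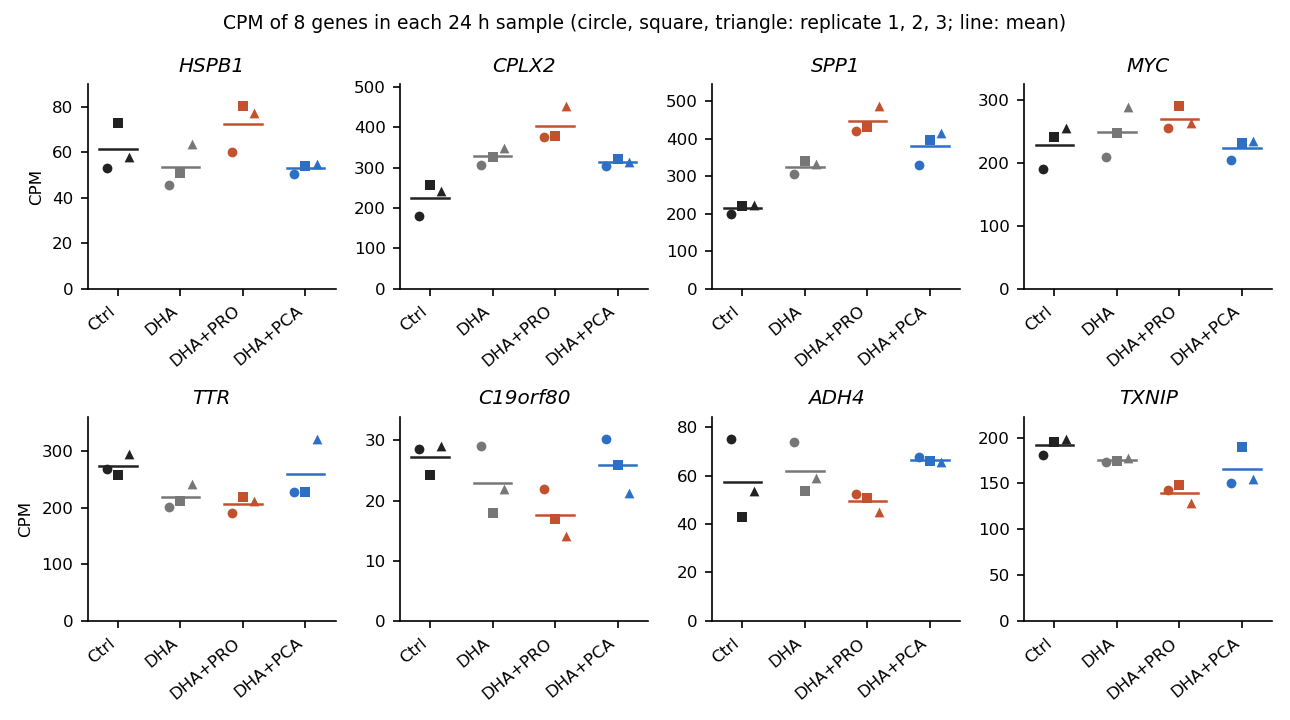
CPM (vertical axes, from 0) of 8 genes in each sample of Ctrl, DHA, DHA+PRO and DHA+PCA at 24 h, with circles, squares and triangles for replicates 1, 2 and 3 and a line at the mean of 3. HSPB1, CPLX2, SPP1 and MYC lay higher and TTR, ADH4 and TXNIP lower in all 3 DHA+PRO samples than in all 3 DHA+PCA samples, C19orf80 overlapped by 1 sample, and none passed the adjusted test.

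In the lists of each compound's own handling 0 genes passed and the medians lay near 0. In the list of propionate uptake and catabolism 16 genes were tested, with a median of 0.000755 and a range from -0.23 to 0.16. SLC16A1, the monocarboxylate transporter MCT1, was at 224, 245 and 218 CPM with DHA+PRO and at 213, 254 and 227 with DHA+PCA (-0.01, -0.18 to 0.15). PCCA and PCCB, the subunits of propionyl-CoA carboxylase, gave 0.16 (-0.21 to 0.52) and 0.04 (-0.15 to 0.22). SUCLA2, a subunit of succinyl-CoA synthetase at the end of the route, was at 38.5, 40.3 and 38.6 CPM against 43.4, 51.3 and 43.5 (-0.23, unadjusted p = 0.0233, edgeR adjusted p = 0.998). In the list of phenolic acid conjugation the median over 13 genes was -0.0377, with a range from -0.42 (SULT1E1) to 0.34 (UGT2B11). Of these 13 intervals 9 lay within ±1, so a 2-fold difference was not bounded for the rest. SULT1A1, a phenol sulfotransferase, was at 141, 149 and 141 CPM with DHA+PRO and at 139, 139 and 156 with DHA+PCA (-0.01, -0.16 to 0.15). The aryl hydrocarbon receptor list had 6 genes tested and a median of 0.0544, and CYP1A1, its classic target, stayed between 1.59 and 3.15 CPM in all 6 samples. The histone deacetylases and sirtuins had a median of -0.0254 over 17 genes, and HDAC1 and HDAC2 gave -0.04 (-0.19 to 0.11) and 0.02 (-0.13 to 0.16). SIRT1, an NAD-dependent deacetylase, was at 25.4, 26.4 and 25.7 CPM with DHA+PRO and at 33.7, 34.9 and 27.7 with DHA+PCA (-0.31, unadjusted p = 0.0251, edgeR adjusted p = 0.998).

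Of 27 NRF2 antioxidant genes, 14 rose against Ctrl with DHA+PRO (0.404% of all genes) and 12 with DHA+PCA (0.387%). Without the replicate number 7 and 2 of them passed. Between the co-treatments 0 passed, 2 had an unadjusted p under 0.05 and were higher with DHA+PRO (1.45% of all genes), and the median was 0.0856. NQO1, a quinone reductase, was at 732, 670 and 681 CPM with DHA+PRO and at 623, 641 and 647 with DHA+PCA, against 456, 496 and 472 in Ctrl. The groups did not overlap, and the log2 fold change of 0.12 (-0.02 to 0.27) did not pass. HMOX1, heme oxygenase 1, was at 84.6, 97.8 and 83.3 CPM with DHA+PRO and at 87.5, 95.5 and 84.7 with DHA+PCA (-0.01, -0.20 to 0.18).

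The list of metallothioneins, small zinc-binding proteins, and other zinc response genes had a median of -0.279 over the 10 genes tested, with pair medians of -0.231, -0.0907 and -0.330. MT1G and SLC30A1, a zinc exporter, had an unadjusted p under 0.05 and were lower (1.84% of all genes), and 0 passed. MT2A was at 29.7, 34 and 27.4 CPM with DHA+PRO and at 35.8, 33.4 and 40.6 with DHA+PCA, so that the pair of replicates 2 gave 0.03 on the log2 scale. Against Ctrl, 0 of the 10 were higher with DHA+PRO (0.404% of all genes) and 3 with DHA+PCA (0.387%), or 0 and 1 without the replicate number. The metallothionein genes share much of their sequence, and reads may be split among them. Without replicate number 3 the median was -0.0734. Replication-dependent histones had a median of -0.301 over 9 genes, with 8 below 0 and pair medians of -0.301, -0.264 and -0.274, and 0 passed. HIST1H1C, a linker histone, was at 21.2, 17.8 and 18.3 CPM against 26.3, 22.1 and 22.9, while 7 of the 9 had at most 6.75 CPM in every one of the 6 samples. Most mRNAs of these histones end without a poly(A) tail, and the libraries were made from enriched mRNA. At 6 h the histone median was 0.262. The median of 38 DNA replication genes at 24 h was 0.0296 and that of 38 mitosis genes 0.0131.

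Genes of secreted plasma proteins leaned lower with DHA+PRO. In bulk RNA, fewer expressing cells and less RNA per cell cannot be told apart. Of 20 plasma and acute-phase protein genes 17 were below 0, with a median of -0.0954, and 7 had an unadjusted p under 0.05 and were lower, beside 1.84% of all genes, but 0 passed. FGB, the fibrinogen beta chain, was at 451, 421 and 460 CPM with DHA+PRO and at 487, 490 and 522 with DHA+PCA (-0.17, -0.33 to -0.02). ALB, albumin, was at 23700, 24300 and 26300 CPM against 23700, 26000 and 29600 (-0.09, -0.22 to 0.04). Complement and coagulation genes had 23 of 26 below 0 and a median of -0.0925, and apolipoprotein and lipoprotein assembly genes 14 of 18 below 0 and a median of -0.104. APOC3, an inhibitor of lipoprotein lipase, was at 194, 202 and 178 CPM against 245, 191 and 267. The pair of replicates 3 was lowest in all 3 lists, with medians of -0.200, -0.215 and -0.335, and the apolipoproteins had 0.105 in the pair of replicates 2. Without replicate number 3 the medians were -0.0359, -0.0239 and 0.0231, and at 6 h they were 0.00717, -0.011 and -0.0111.

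Immediate early genes and genes of matrix and secreted signals leaned the other way. Immediate early genes, the first to respond to growth signals, had 13 of 15 above 0 and a median of 0.135, but a median of -0.0255 without replicate number 2. Genes of matrix and secreted signals had 15 of 19 above 0, a median of 0.0582, and 5 with an unadjusted p under 0.05 that were higher, beside 1.45% of all genes, with 0 passing. They included FN1, fibronectin, at 9110, 10800 and 11100 CPM against 8940, 9990 and 9200, and CYR61, a matricellular protein, at 13.1, 13.1 and 13.6 against 11.3, 9.39 and 8.69. Among 15 genes of bile acid synthesis the median was -0.0844, among 12 heat shock genes 0.0684, and among 19 chaperones of the endoplasmic reticulum 0.0365 with 16 above 0. The medians of the other lists read, which were LXR targets, branched-chain amino acid degradation, glutathione enzymes, selenoproteins, ATF4 targets, one-carbon enzymes, hypoxia and glycolysis, gluconeogenesis, interferon response and p53 targets, lay between -0.0548 and 0.0533, and 0 of their genes passed. The larger groups of cell machinery had medians near 0, at -0.0203 over 78 ribosomal protein genes, -0.00107 over 31 proteasome subunits and -0.0249 over 74 respiratory chain genes.

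**Figure D4:**
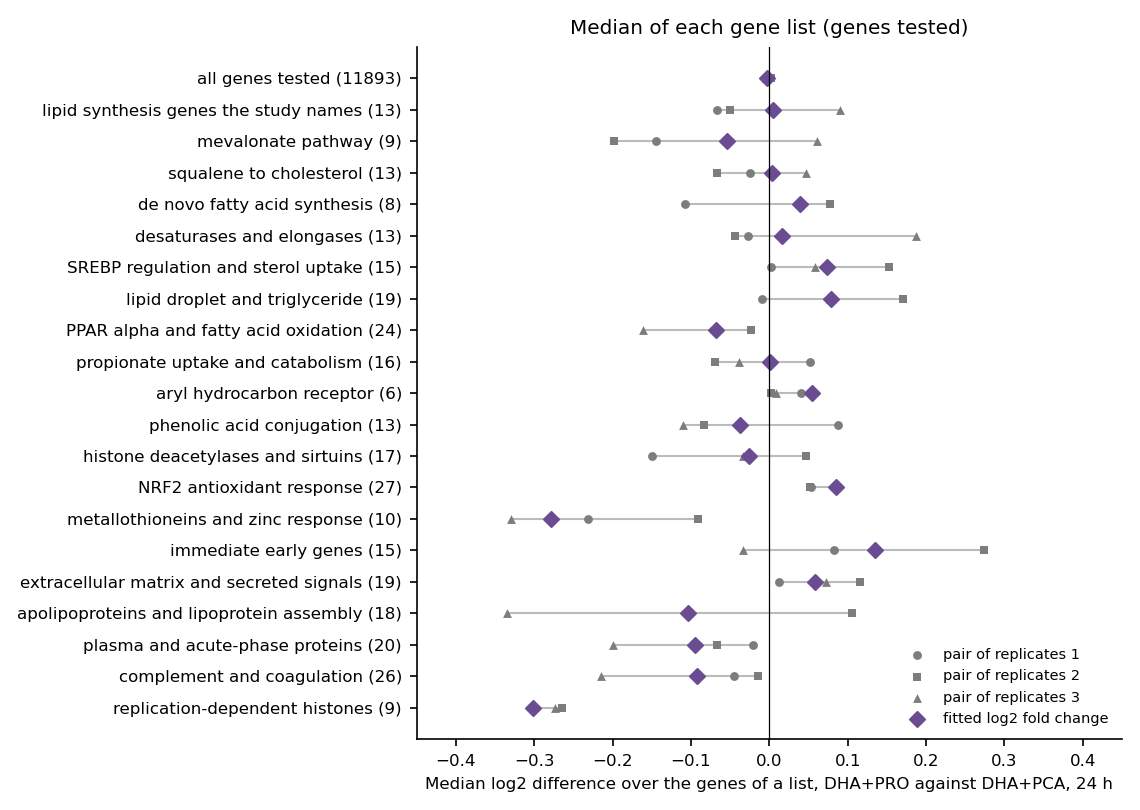
Median log2 difference of DHA+PRO against DHA+PCA at 24 h (horizontal axis) in 20 gene lists and over all genes tested, with the number of genes in brackets; grey circles, squares and triangles are the medians of the pairs of replicates 1, 2 and 3 and purple diamonds those of the fitted log2 fold changes. The lipid synthesis lists lie near 0, and the metallothioneins and histones lie at -0.279 and -0.301.

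The same contrast was read at 6 h, in libraries of their own. Of 11872 genes, 0 (0%) passed in edgeR and 370 were at an unadjusted p under 0.05. Dropping the replicate number from the model left these at 0 and 145, and the DESeq2 Wald test gave 0 and 299. At 6 h replicate 2 of DHA+PRO belongs to the later series of library numbers and replicate 2 of DHA+PCA to the earlier one. Without that DHA+PRO library 0 genes passed, the lowest adjusted p was 0.255 and 1031 genes had an unadjusted p under 0.05, while the series as the block in place of the replicate number gave 0 and 452. The difference between 24 h and 6 h passed in 0 of 12046 genes, with 480 at an unadjusted p under 0.05. The gene with the lowest p at 6 h was TXNIP (thioredoxin-interacting protein, a sugar-responsive inhibitor of thioredoxin and glucose uptake, chr1:145438438-145442628, plus strand, hg19), named after its values were seen. It was at 131, 113 and 142 CPM with DHA+PRO at 6 h and at 170, 166 and 148 with DHA+PCA, a log2 fold change of -0.34 ± 0.0877 that did not pass (edgeR adjusted p = 0.999, or 0.953 with the series as the block). At 24 h it was at 143, 148 and 129 CPM against 151, 190 and 155 (-0.24 ± 0.0825, unadjusted p = 0.00761, edgeR adjusted p = 0.998). The groups did not overlap at either time. Without DHA the contrast gave -0.31 at 6 h and -0.25 at 24 h. Against Ctrl at 24 h TXNIP was -0.45 with DHA+PRO (edgeR adjusted p = 0.00271) and -0.21 with DHA+PCA (0.289), values that share the Ctrl samples and do not show a difference between the co-treatments.

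The test passed in more genes for PRO against PCA without DHA than with it, but the difference itself did not pass. PRO against PCA at 24 h called 59 of 11893 genes (0.496%), 43 higher and 16 lower with PRO, but 0 without the replicate number (1586 at an unadjusted p under 0.05), 49 with a GC-content offset and the replicate number kept (30 of them among the 59), 1811 without replicate number 2, 2116 without replicate 2 of PRO alone, and 0 without replicate number 1 or 3. The GC content of a gene moved with this contrast (fitted values, Spearman -0.656 over 11830 genes). The Spearman correlation in the pairs of replicates 1, 2 and 3 was -0.713, 0.0327 and -0.498. The 43 higher genes had a median GC content of 37.6% and the 16 lower ones of 59.8%. The difference of the contrast with and without DHA passed in 0 genes (0%), with 1834 at an unadjusted p under 0.05 and a lowest adjusted p of 0.177 in edgeR, but in 28 by the DESeq2 Wald test and in 97 without replicate number 2. In the DHA-treated samples of 24 h, 10 of the 43 had the same sign, with a median of -0.0482 against 0.574 without DHA. Of the 16, 12 had the same sign, with a median of -0.0289 against -0.442. In the DHA-treated samples of 6 h, 34 of the 43 had the same sign (median 0.0871) and 13 of the 16 (median -0.0759). The 59 genes were picked for their change without DHA, so the sizes with and without DHA are not on equal terms. The C19orf80 transcript was the one of the 59 that kept most of its size. It was at 21.5, 17.9 and 10.6 CPM with PRO and at 33.6, 29.5 and 24.1 with PCA (-0.81, edgeR adjusted p = 0.0221), beside -0.55 in the presence of DHA and -0.33 at 6 h with DHA. The interaction for C19orf80 was 0.26 with an unadjusted p of 0.259.

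**Figure D5:**
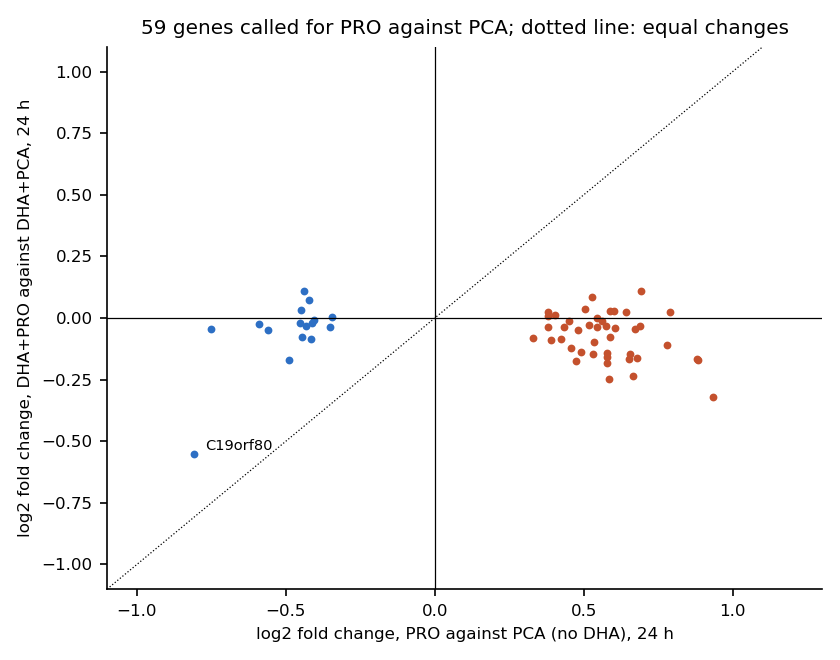
Log2 fold change with DHA (DHA+PRO against DHA+PCA, vertical axis) against that without DHA (PRO against PCA, horizontal axis) at 24 h for the 59 genes called without DHA, red where higher and blue where lower with PRO. Most points lie near 0 on the vertical axis and away from the dotted line of equal changes, and C19orf80 lies at -0.81 and -0.55. The genes were picked by their horizontal values, so the axes are not on equal terms.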

How the data were processed

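RNA-seq counts of HepG2 cells came as 1 deposited table of 36 libraries, 18 for each time, and 6 of these form the comparison. The authors pooled RNA of parallel cultures in each of 3 independent experiments, prepared mRNA-enriched TruSeq libraries, aligned reads to hg19 with STAR (named in the submitters' processing notes) and counted them per RefSeq gene. The deposited values are raw counts for 18932 genes, without normalization, and the deposited gene length (an other unit) served only in a check of length trends. All sample columns were used. Starts in the table count from 0, and 1 was added.

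Counts were fitted in R 4.3.3 with edgeR 4.0.16 (filterByExpr, TMM, quasi-likelihood F test) over the 18 libraries of a time point, with the replicate number as an additive block. A standard error is the size of a log2 fold change divided by the square root of F. CPM values use TMM-scaled library sizes, and pair differences are of log2(CPM + 0.5). An exact two-sided permutation test of 3 against 3 cannot give a p below 0.1 and was not used for calls. Counts are reads and not molecules. The fits were tested on simulated data. No 2 of the 6 libraries were duplicates (lowest chi-square per degree of freedom 2.54 over 15 pairs).

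Replicate numbers come from the labels, where nothing ties them to a day or batch, and values without the block are given beside the calls that change most with it. Every replicate 3 at both times, and replicate 2 of DHA+PRO at 6 h, belongs to the later of 2 series of library numbers, so this series is part of the block at 24 h and not wholly at 6 h.

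The members and gene lists were chosen with earlier results of these data known. Named genes are the 12 with the lowest p in each direction, the lipid synthesis genes the study names and up to 4 members of each list with the highest average log2 CPM. TXNIP, and list members given as examples for a low p, a low or high value or a known role, were chosen after their values were seen. Some genes are counted in these sets but not reported on their own. Lists got no test, only counts and medians. Alternatives were no block, scaling by upper quartiles or by size factors, the likelihood ratio test, DESeq2 1.42.0 (Wald test), other filters, only the 6 libraries compared, leaving out replicates, a thinned deep library and a GC-content offset (spline with 5 degrees of freedom per library, 18768 genes with a GC value). GC-content offsets for the other contrasts, the thinned library for the interaction and the series as block at 6 h were chosen after seeing the data. Promoters are RefSeq's. Python 3.11.15 and matplotlib 3.10.9 drew the figures.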

Additional observations from a re-analysis of the deposited data

How the results depend on the processing

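The count of 0 genes between DHA+PRO and DHA+PCA at 24 h was the same under every alternative run but 1, the fit with no filter on low counts, which called 1 gene (MUC5B). The lowest adjusted p, by edgeR, was 0.116 without replicate number 2 and 0.308 under the blocked fit that corrects for GC content. At 6 h and between the times, 0 genes passed in every alternative. For PRO against PCA without DHA (59 genes), the count was 0 with no replicate block, 0 with only the 6 samples compared (with or without the block), 0 with the GC-content offset and no block (49 with that offset and the block), 280 by the DESeq2 Wald test, 379 by the likelihood ratio test and 682 with no filter. Leaving out 1 replicate gave 0 to 2116, the highest without replicate 2 of PRO. For the difference with and without DHA, the counts were 28 (Wald), 37 (likelihood ratio) and 214 (no filter), and 0 to 97 on leaving out a replicate number, the highest without number 2 and 1 (SPTSSA) without number 3. The cause was not tested. Of all counts of genes called, 67 kept within 1.5 times and 22 did not. Most of the 67 were 0 in both fits, and most of the 22 were of PRO against PCA without DHA. Of the 570 values of named genes, those of the 24 with the lowest p and of TXNIP kept their direction and their side of the threshold. Those of the lipid synthesis genes stayed within the spread between pairs, and some changed sign (MSMO1 ran from -0.10 to 0.03).

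Of the list medians 320 stayed within the spread between pairs and 16 moved by more, among them the histones, between -0.397 and -0.236, and the aryl hydrocarbon receptor list, between -0.00695 and 0.158. Same-numbered samples were not shown to be paired. Deviations from the group means correlated, across genes, at 0.111, 0.0222 and 0.0944 between the co-treatments for numbers 1, 2 and 3 (0.43, 0.0604 and 0.349 at 6 h, where replicate 2 of DHA+PRO and replicate 3 of DHA+PCA, both of the later series of library numbers, gave 0.332), and at a mean of 0.15 over 45 same-number pairs of all groups at 24 h against -0.0739 over 90 pairs of different numbers. Deviations sum to 0 within a group. The mean over different numbers thus largely follows from that over same numbers and is no separate baseline. Without the replicate block the co-treatments still gave 0 genes. The calls against Ctrl then went from 135 to 47 (DHA+PRO), from 130 to 34 (DHA+PCA) and from 77 to 23 (DHA).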
